A study of Mus musculus with 6 samples.

Results

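The Rab genes described here encode the small GTPases that direct vesicle traffic. They were read in cultures that the study names primary endothelial, from Nhe6-knockout and wildtype mice. The source was the stria vascularis, the vascularized epithelium of the cochlear lateral wall. By the methods of the study, the stria vascularis was isolated with the spiral ligament of the same wall. Members were all rows of the deposited gene table whose symbol is "Rab" followed by a number and at most 1 letter. This gave 59 of 24421 genes. The filter on low counts kept 51 of them, among 13479 genes that entered the test. Regulators and effectors of the family with other symbols were kept apart as 4 lists of 134 genes.

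A Rab protein works as a switch. A guanine nucleotide exchange factor loads it with GTP on its own membrane, where it recruits effectors such as tethers, motor adaptors and lipid kinases, and a GTPase-activating protein returns it to the GDP form, which a dissociation inhibitor extracts into the cytosol. Each organelle carries its own set: Rab1 and Rab2 between the endoplasmic reticulum and the Golgi, Rab6 at the Golgi, Rab5 on early endosomes, Rab4 and Rab11 on recycling routes, Rab7 on late endosomes and lysosomes, and Rab3 and Rab27 on secretory granules. Endothelial cells take up and pass on cargo through these same compartments, and the comparison asks whether the transcripts of the traffic machinery differ between the genotypes.

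The Nhe6-knockout group held 3 cultures from mice with the targeted disruption that names it, and the wildtype group held 3 cultures from mice without it. The labels give the background of both groups as C57BL/6N, whereas the methods of the study name a backcross into C57bl6/j of a line whose strain name carries 129P2. Effects of the allele and of linked 129P2 sequence cannot be told apart. All mice were 10 to 12 days old, and the cells were sorted by flow cytometry, grown in endothelial medium with serum and left untreated. Poly(A) RNA was sequenced in stranded libraries, 1 per culture. By the methods of the study each culture was made from several mice. Whether the 3 cultures of a genotype were isolated separately is not stated in the labels, and p-values then measure only the spread between these cultures, which may be technical. In bulk RNA, fewer cells of a type and less RNA per cell cannot be told apart.

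Values of a gene are listed below in the order of replicates 1, 2 and 3, with the Nhe6-knockout cultures first. Gene counts per library ranged from 25587097 to 29126232. Nhe6-knockout replicates 1 and 2 were far closer to each other than other pairs, with a chi-square per gene of 4.91 against 90.1 to 398 for the other 14 pairs. They still differed by more than sampling noise, which does not show that they were isolated separately. They were kept as 2 cultures, and their sum was run as an alternative. SDs and counts of overlap below treat them as 2. Wildtype replicate 2 stood apart on the first principal component, at 106 against -28.5 to -6.52 for the others, so results that rest on it are given with and without it. Of 15 endothelial markers, 7 averaged at least 100 normalized counts, Emcn and Eng among them, and the summed level was 16880 to 25940 in Nhe6-knockout and 15990 to 23650 in wildtype. Pecam1, Cldn5, Tie1 and Robo4 had at most 10 counts in every library, with Cldn5 and Robo4 at 0. Vwf, Erg, Kdr and Esam reached at most 25, 15, 68 and 230 counts in a library. Cdh5, the gene of VE-cadherin, was lower in Nhe6-knockout (220, 232 and 179 against 2509, 5200 and 3470, edgeR adjusted p = 0.0133). All 8 fibroblast markers averaged at least 100 normalized counts (summed level 217100 to 250700 in Nhe6-knockout and 174900 to 286700 in wildtype). In every culture this sum was above that of the endothelial markers. Single genes weighed heavily in both sums. In Nhe6-knockout replicate 1, Col1a2 had 139000 of 241400 and Emcn had 18390 of 25940 normalized counts. The Rab values below are those of each culture as a whole. For 5 of 9 mural markers all Nhe6-knockout cultures lay above all wildtype cultures, where this held for 10.3% of all genes tested. The summed level of the 9 mural markers was 22080 to 24330 in Nhe6-knockout and 16250 to 35230 in wildtype. The summed level of 10 cell cycle genes was 6782 to 12380 in Nhe6-knockout and 1881 to 2962 in wildtype cultures. The part of these differences in the Rab values below was not tested.

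Promoter sequences of 48 of the 59 genes were listed in RefSeq for GRCm38.p6. Those of the 3 Rab5 genes and of Rab7, the GTPases of early and late endosomes and, in Rab7 and Rab5c, 2 of the most abundant members, are shown to set the letters of close paralogues with different values beside each other. Each is the 250 bases before the first start that RefSeq lists, 5′ to 3′ on the gene's strand. RefSeq and GENCODE starts can differ: 20 of the 48 windows lie wholly outside the GENCODE gene, these 4 included, and the other 28 reach into it. Capitals mark an E-box (CACGTG, a palindrome), a GC box (GGGCGG, or CCGCCC on the other strand) or a CCAAT box (CCAAT, or ATTGG on the other strand).
Rab5a (GRCm38.p6, chr17:53478984-53479233, plus strand): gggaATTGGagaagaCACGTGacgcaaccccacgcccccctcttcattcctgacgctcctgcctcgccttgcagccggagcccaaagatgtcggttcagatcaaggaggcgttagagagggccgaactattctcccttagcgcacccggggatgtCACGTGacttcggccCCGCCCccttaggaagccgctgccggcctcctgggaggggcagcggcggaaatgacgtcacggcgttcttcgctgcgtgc
Rab5b (GRCm38.p6, chr10:128696269-128696518, minus strand): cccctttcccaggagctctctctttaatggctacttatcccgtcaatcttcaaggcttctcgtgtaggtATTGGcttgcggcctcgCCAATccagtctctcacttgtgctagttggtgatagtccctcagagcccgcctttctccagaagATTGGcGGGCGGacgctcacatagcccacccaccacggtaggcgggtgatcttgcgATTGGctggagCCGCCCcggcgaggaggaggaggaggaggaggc
Rab5c (GRCm38.p6, chr11:100738216-100738465, minus strand): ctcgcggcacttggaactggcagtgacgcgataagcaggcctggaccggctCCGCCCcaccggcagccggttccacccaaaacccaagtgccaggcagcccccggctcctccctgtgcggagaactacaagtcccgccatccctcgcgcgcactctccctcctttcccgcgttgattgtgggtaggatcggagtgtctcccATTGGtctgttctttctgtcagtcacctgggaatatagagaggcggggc
Rab7 (GRCm38.p6, chr6:88045271-88045520, minus strand): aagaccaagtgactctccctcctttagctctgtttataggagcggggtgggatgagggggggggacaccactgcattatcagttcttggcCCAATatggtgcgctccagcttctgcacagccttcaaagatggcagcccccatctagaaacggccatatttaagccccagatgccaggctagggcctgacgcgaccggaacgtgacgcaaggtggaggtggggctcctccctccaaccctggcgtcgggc
The Rab5a window held 2 E-boxes, 1 GC box and 1 CCAAT box, and that of Rab5b held no E-box, 2 GC boxes and 4 CCAAT boxes. Rab5c held 1 GC box and 1 CCAAT box, and Rab7 held 1 CCAAT box. A GC box was present in 33 of 48 Rab promoters (68.8%), against 32.9% of the windows of 27025 genes, and a CCAAT box in 22 of 48 (45.8%) against 34.5%. The E-box was present in the windows of Rab5a, Rab20, Rab21 and Rab23, which is 8.33% of 48 against 6.05% of all genes. All motifs were searched on both strands, and none contains another. A match describes the letters only.

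Rab transcripts were abundant in all cultures. Levels of different genes are compared as normalized counts per kilobase of exon, where the counts of each library were first brought to a common library size with TMM factors. The median over the 51 members tested was 305.1 per kilobase, against 160.5 over all genes tested, and 36 members lay above the latter value. Rab7 had the highest level, at a mean of 3822 per kilobase over the 6 cultures and 3029 to 4974 from lowest to highest. It was followed by Rab2a at 3077, Rab5c at 2518, Rab1 at 2284 and Rab10, which carries secretory and basolateral cargo, at 2154. These 5 genes made up 40.2% of the summed level of the family, and the first 10 made up 61.7%. Most neighbours in the order did not separate, since the ranges over the 6 cultures overlapped in 57 of 58 neighbouring pairs, the exception being Rab44, with 1 count in 1 library, beside Rab3c, with none.

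By role, the 14 tested genes of the endoplasmic reticulum and Golgi held 35.2% of the summed level, the 11 genes of recycling and surface delivery 22.2%, the 4 late endosomal genes 19.5% and the 8 early endosomal and phagosomal genes 17.5%. Genes of regulated secretion were scarce. The 7 that were tested held 1.6%, with a median of 8 per kilobase. Rab3a and Rab3d, which act on secretory vesicles and granules, stood out from that group at 245 and 258 per kilobase.

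**Figure D1:**
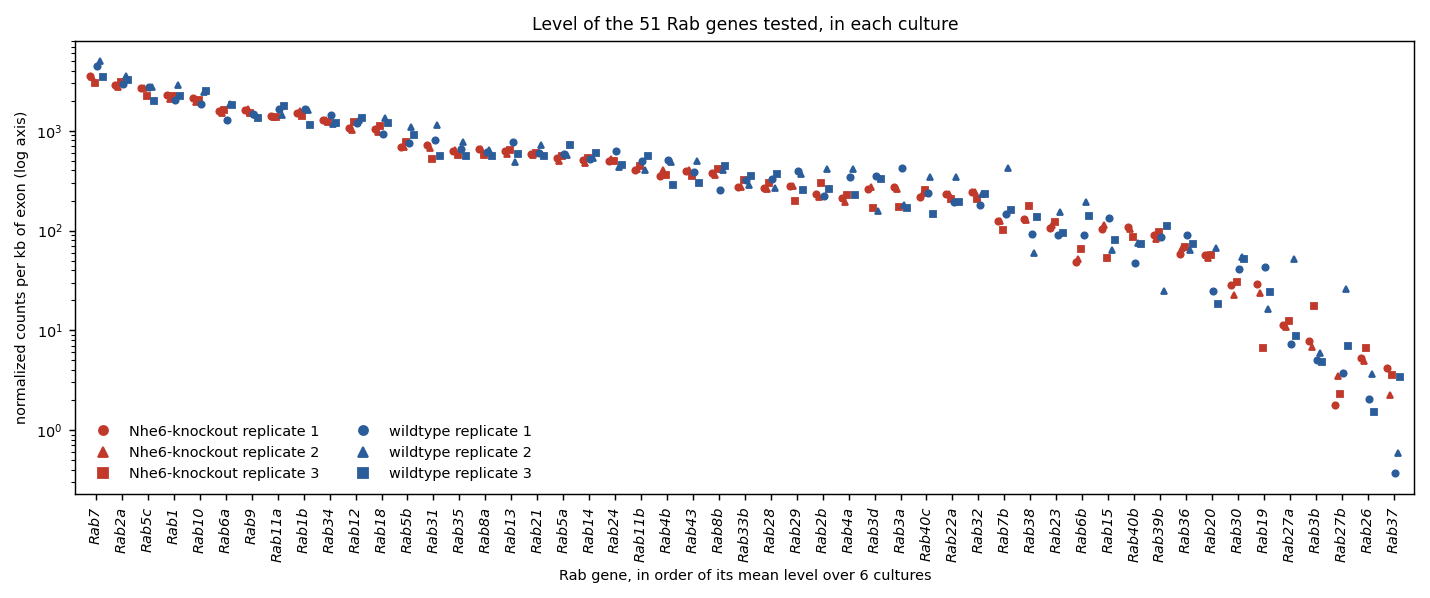
Level of each of the 51 Rab genes tested, as normalized counts per kilobase of exon on a log axis, with 1 point for each of 6 cultures (red, Nhe6-knockout; blue, wildtype; marker shape, replicate number). Levels run from a mean of 3822 for Rab7 to 2.39 for Rab37, and the cultures of the abundant members lie close together whatever their genotype.

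The 8 members below the filter had at most 26 counts in any library. Rab3c, a neuronal synaptic vesicle Rab, had no count in any culture. Rab44, Rab9b and Rab39 had at most 4 counts in a library, Rab42 had 4 to 10 and Rab33a had 2 to 17. Rab17 and Rab25 are known from polarized epithelia. Rab25 had 8, 19 and 1 counts in Nhe6-knockout cultures against 26, 4 and 9 in wildtype cultures. Epcam, an epithelial surface marker, had 46.7, 109 and 14.2 normalized counts in the former cultures and 253, 2.06 and 121 in the latter. Both were highest in wildtype replicate 1, and next highest in Nhe6-knockout replicate 2 for Rab25 and wildtype replicate 3 for Epcam.

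No Rab gene passed the threshold of 0.05 on the adjusted p in edgeR's quasi-likelihood test, in which 9 of all genes tested did (0.0668%). The smallest adjusted p was 0.142. At an unadjusted p under 0.05, 5 members were lower in Nhe6-knockout cultures (Rab6b, Rab30, Rab27b, Rab4a and Rab7b) and 1 was higher (Rab26), in a table where 5.71% of all genes were lower and 6.14% were higher by that measure. All 3 Nhe6-knockout cultures lay below all 3 wildtype cultures for 6 members (Rab5a, Rab6b, Rab7b, Rab11a, Rab27b and Rab30; 9.57% of all genes), and above them for 4 (Rab3b, Rab9, Rab26 and Rab40b; 10.3% of all genes). DESeq2's Wald test gave 2 members with an adjusted p under 0.05, Rab6b and Rab30, while calling 4.69% of all genes. Without wildtype replicate 2, edgeR called no member, while calling 2.88% of all genes, and 9 of 53 members had an unadjusted p under 0.05, in a fit where 19.5% of all genes did.

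The family as a whole leaned low by a small amount. Of 51 members, 35 had a log2 fold change below 0, against 51.9% of all genes, and their median was -0.12 against -0.02 over all genes tested. Among genes averaging 1000 normalized counts or more, 22 of 29 members and 3205 of all 5610 genes were below 0. The medians at that level were -0.12 and -0.04. Without wildtype replicate 2, 31 of the 53 members then tested were below 0 and their median was -0.09, with 0.00 over all genes. Of gene counts, Rab genes took 0.409% ± 0.00619 in Nhe6-knockout cultures against 0.437% ± 0.0338 in wildtype cultures (SD, n = 3 each). The difference had a two-sided exact permutation p of 0.1, which is the smallest that 3 cultures against 3 can give. Without wildtype replicate 2 the difference went from -0.028 to -0.0085 percentage points (exact permutation p = 0.2). Wildtype replicate 2 was the highest of the 6 cultures for 22 members, where this holds for 26.8% of all genes, and the lowest for 6, where this holds for 26.5%.

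Most abundant members differed little. Between the genotypes, 31 of 51 log2 fold changes (60.8%) were within 0.25 of 0, against 54.2% of all genes. Among the 29 members that averaged 1000 normalized counts or more, the number was 24 (82.8%), against 66.0% of all 5610 genes at that level, and the values ran from -0.39 to 0.16. For 27 of these 29 the 95% interval excluded a doubling or a halving. Among the 22 members with a lower mean it did so for only 7, and a difference of that size was not excluded for the other 15. The coefficient of variation was larger in wildtype than in Nhe6-knockout cultures for 46 of 51 members (90.2%), as for 81.7% of all genes, with medians over members of 21.4% and 7.50%.

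**Figure D2:**
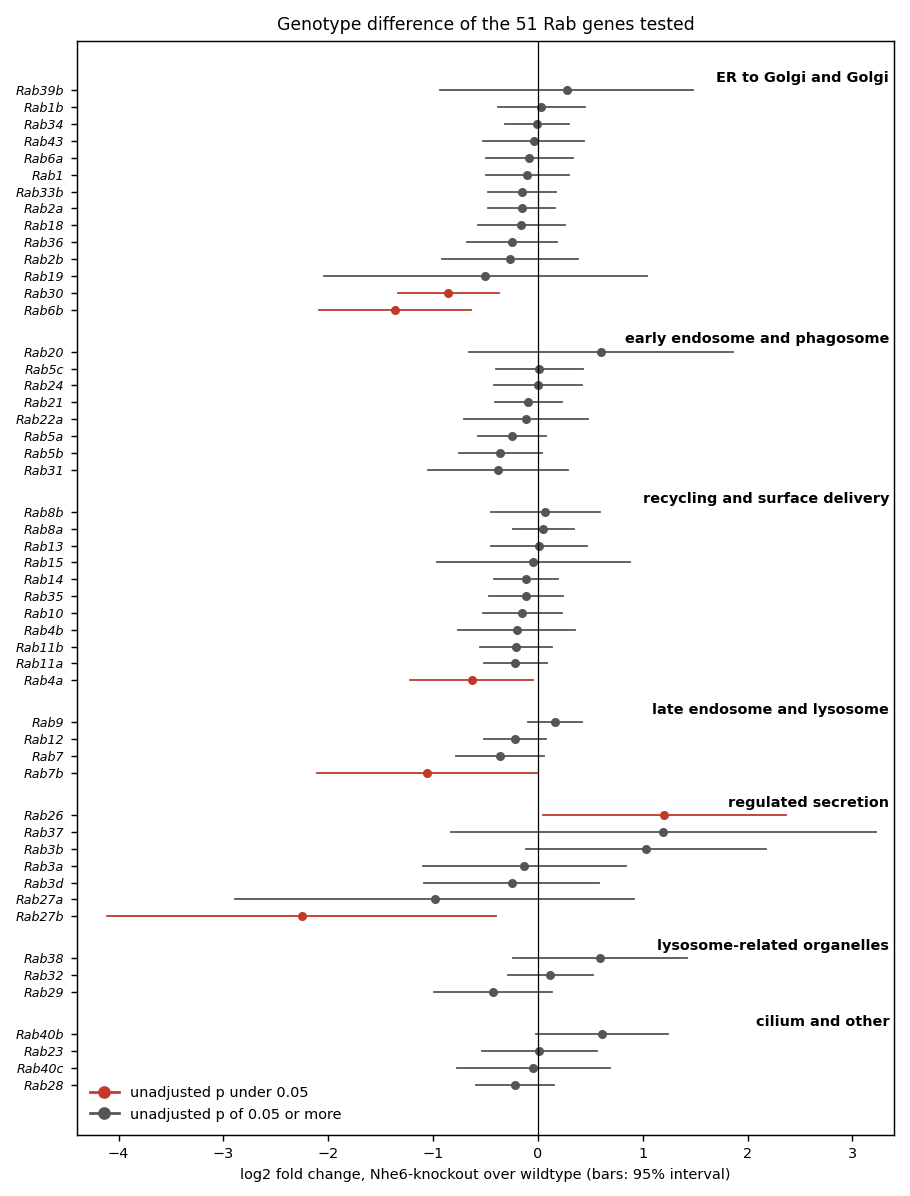
Log2 fold change of the 51 Rab genes tested, Nhe6-knockout over wildtype, by role, with the 95% interval of the edgeR fit as a bar. The 6 genes with an unadjusted p under 0.05 are red, and none of them has an adjusted p under 0.05. Abundant members such as Rab1, Rab2a and Rab5c lie near 0 with short bars.

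Among the early endosomal members, the 3 Rab5 genes encode the GTPases that drive fusion of incoming vesicles and recruit EEA1. Rab5a (chr17:53479234-53507680) had 2786, 2638 and 2955 normalized counts in Nhe6-knockout cultures against 3110, 3021 and 3814 in wildtype cultures. The cultures did not overlap, by a margin of 2955 to 3021, and the log2 fold change was -0.25 (SE 0.13, 95% interval -0.57 to 0.07, edgeR adjusted p = 0.534). Rab5b (chr10:128677175-128696264) had 2901, 2860 and 3251 against 3163, 4580 and 3804, with overlap between Nhe6-knockout replicate 3 and wildtype replicate 1. Rab5b was at a log2 fold change of -0.36 (SE 0.16, 95% interval -0.75 to 0.03, edgeR adjusted p = 0.459). Rab5c (chr11:100715009-100738215), the most abundant of the 3, had 5898, 5851 and 4896 against 6024, 6065 and 4414. Its groups coincided, at a log2 fold change of 0.01 (SE 0.17, 95% interval -0.40 to 0.43), and its sign turned in 5 of 12 alternative settings. Rab31, which acts between the trans-Golgi network and endosomes, had 2741, 2545 and 1997 against 3055, 4349 and 2108. Its log2 fold change of -0.39 (SE 0.28, edgeR adjusted p = 0.658) went to -0.09 without wildtype replicate 2.

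Rab20, a Rab of phagosomes, had 78.6, 74.4 and 79.5 normalized counts in Nhe6-knockout cultures and 34.2, 92.9 and 25.7 in wildtype cultures. The log2 fold change was 0.60 (SE 0.52, edgeR adjusted p = 0.722) over all cultures. Without wildtype replicate 2 it was 1.36 (edgeR unadjusted p = 0.00424, edgeR adjusted p = 0.0798). In that fit 19.5% of all genes had an unadjusted p under 0.05. Rab21, Rab22a and Rab24 had log2 fold changes between -0.12 and 0.00. None of the 8 tested genes of this role had an unadjusted p under 0.05 over all 6 cultures.

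Rab7 (chr6:87999106-88045270) is the GTPase that takes over from Rab5 as endosomes mature and that links late endosomes to motors and to the fusion machinery of the lysosome. It had 9199, 9090 and 7905 normalized counts in Nhe6-knockout cultures against 11540, 12980 and 9146 in wildtype cultures, or 8731 ± 718 against 11220 ± 1937 (SD, n = 3 each). Wildtype replicate 3 lay inside the range of the Nhe6-knockout cultures. Rab7 was at a log2 fold change of -0.36 (SE 0.17, 95% interval -0.78 to 0.06, edgeR adjusted p = 0.478), and it stayed between -0.50 and -0.25 when each culture was left out in turn. Rab7b (chr1:131688695-131715439), a distinct Rab of transport from endosomes to the trans-Golgi network, had 578, 579 and 471 against 670, 1980 and 742. The groups did not overlap, and wildtype replicate 2 was far above the other wildtype cultures. Its log2 fold change of -1.06 (SE 0.43, edgeR adjusted p = 0.42) went to -0.39 without that culture.

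Rab9 (chrX:166457253-166479867), which returns mannose 6-phosphate receptors from late endosomes to the Golgi, was the late endosomal member with a value above 0. It had 2846, 2893 and 2630 normalized counts against 2597, 2530 and 2350, with no overlap. The log2 fold change was small, at 0.16 (SE 0.11, 95% interval -0.09 to 0.42, edgeR adjusted p = 0.62). Rab9 is 1 of 2 tested members on the X chromosome, beside Rab39b. Rab12, which acts in degradation of recycling receptors, had a log2 fold change of -0.22 (SE 0.12).

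Of the 11 tested genes of recycling and surface delivery, 10 had a log2 fold change within 0.25 of 0. The exception was Rab4a (chr8:123805985-123835287), the GTPase of fast recycling from early endosomes. It had 369, 342 and 399 normalized counts in Nhe6-knockout cultures and 599, 726 and 397 in wildtype cultures. Wildtype replicate 3 lay within the Nhe6-knockout range, and the log2 fold change was -0.63 (SE 0.24, 95% interval -1.22 to -0.05, edgeR adjusted p = 0.382). Without wildtype replicate 2 it was -0.43. Its paralogue Rab4b had a log2 fold change of -0.20 (SE 0.23).

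Rab11a (chr9:64715299-64737758), the GTPase of slow recycling through the perinuclear recycling endosome, had 4247, 4093 and 4135 normalized counts in Nhe6-knockout cultures and 4960, 4265 and 5259 in wildtype cultures. The groups did not overlap, but only by 4247 against 4265, and the log2 fold change was -0.22 (SE 0.12, 95% interval -0.51 to 0.08, edgeR adjusted p = 0.562). Rab11b (chr17:33742484-33760530) had 2478, 2553 and 2737 against 3061, 2506 and 3396, with a log2 fold change of -0.21 (SE 0.14, 95% interval -0.55 to 0.14, edgeR adjusted p = 0.645). Rab8a and Rab8b, which deliver cargo to the plasma membrane and cilium, had log2 fold changes of 0.05 and 0.07, and Rab13, which acts at cell junctions, had 0.01. Rab10, Rab14 and Rab35 lay between -0.15 and -0.11.

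The smallest p-values of the family were those of Rab6b and Rab30, both in the Golgi group. Rab6b (chr9:103111787-103185276) encodes the less widely expressed form of Rab6, which moves vesicles at the Golgi with kinesin and dynein. It had 243, 259 and 326 normalized counts in Nhe6-knockout cultures against 459, 974 and 698 in wildtype cultures, or 276 ± 43.7 against 710.1 ± 258 (SD, n = 3 each). Every wildtype culture was above every Nhe6-knockout culture. The log2 fold change was -1.36 (SE 0.30, 95% interval -2.08 to -0.64, edgeR adjusted p = 0.142). DESeq2 gave an adjusted p of 0.00262, and over all 12 alternatives the adjusted p ran from 0.00262 to 0.596. The log2 fold change stayed between -1.60 and -1.07 when each culture was left out in turn, and it was -1.07 without wildtype replicate 2 (edgeR adjusted p = 0.0801). Rab6a, its close paralogue, had a log2 fold change of -0.08 (SE 0.17).

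Rab30 (chr7:92741603-92844535), a Golgi Rab also recruited in autophagy of bacteria, had 276, 216 and 293 normalized counts in Nhe6-knockout cultures and 396, 523 and 499.7 in wildtype cultures. The groups did not overlap, and wildtype replicate 2 was near wildtype replicate 3. Its log2 fold change was -0.86 (SE 0.20, 95% interval -1.33 to -0.38, edgeR adjusted p = 0.161), and leaving out each culture in turn gave -0.97 to -0.73. DESeq2 gave an adjusted p of 0.0102, with a range over the 12 alternatives of 0.0102 to 0.639. The abundant genes of this role showed little. Rab1 and Rab1b, needed for traffic from the endoplasmic reticulum to the Golgi, had -0.10 and 0.03, Rab2a had -0.16, Rab18, known from lipid droplets and the endoplasmic reticulum, had -0.16, and Rab34 had -0.01. In all, 12 of the 14 tested genes of this role were below 0, against 51.9% of all genes tested. Wildtype replicate 2 was the highest culture for 8 of the 14, where this holds for 26.8% of all genes. Without it Rab1, Rab2b, Rab6a and Rab43 turned above 0, at 0.05, 0.04, 0.01 and 0.16. Rab39b turned below 0, at -0.15.

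**Figure D3:**
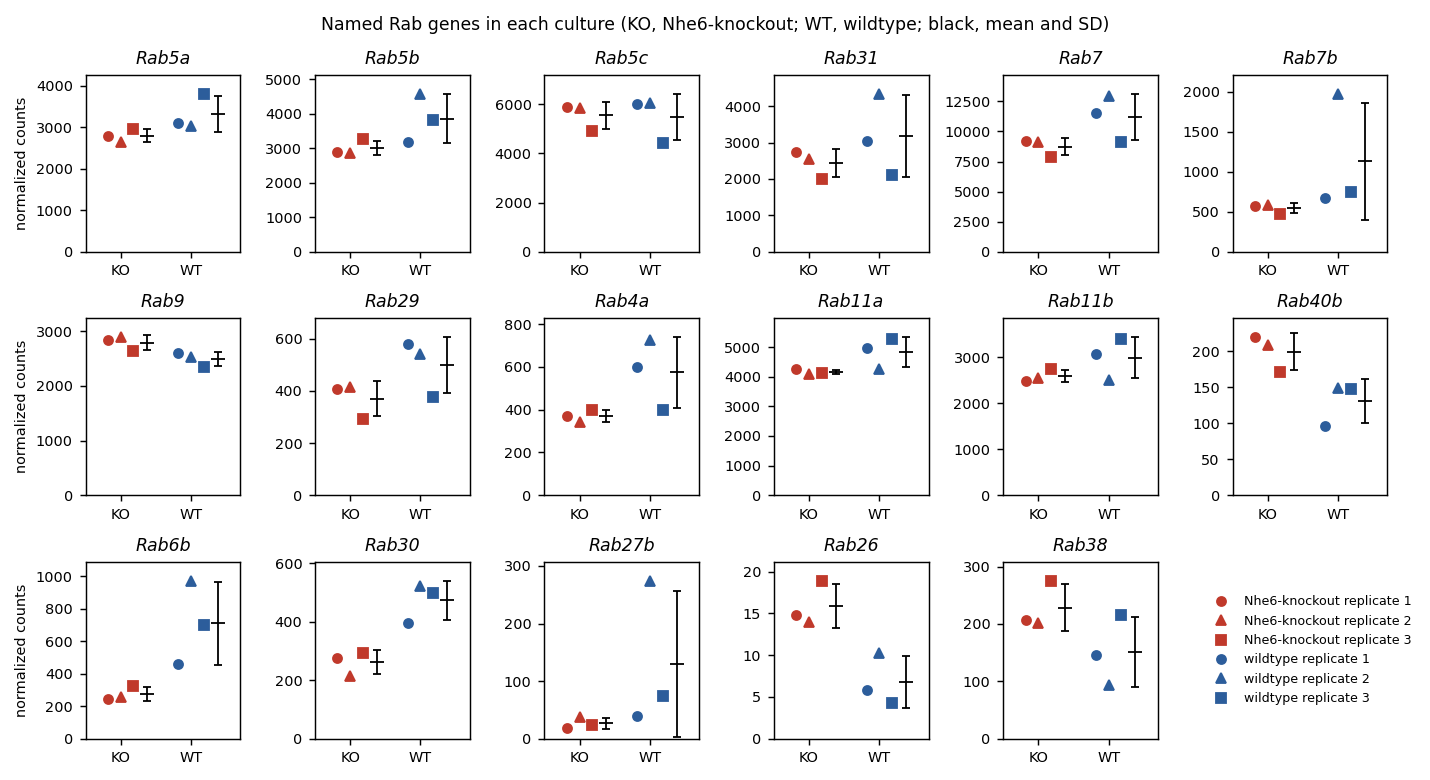
Normalized counts of 17 Rab genes in each of 6 cultures, each panel with its own axis from 0 (red, Nhe6-knockout; blue, wildtype; marker shape, replicate number; black, mean and SD over 3 cultures). Rab6b and Rab30 are lower in all 3 Nhe6-knockout cultures, Rab7b and Rab27b are set apart mainly by wildtype replicate 2, and Rab5c and Rab11b overlap.

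The secretory members were scarce and uneven between cultures. Rab27b (chr18:69979131-70141605), which docks secretory granules and exosome-bearing endosomes, had 19.1, 37.2 and 24.6 normalized counts in Nhe6-knockout cultures and 40.1, 275 and 73.8 in wildtype cultures. The groups did not overlap, by a margin of 37.2 to 40.1. Rab27b was at a log2 fold change of -2.26 (SE 0.77, 95% interval -4.11 to -0.40, edgeR adjusted p = 0.329) and -1.08 without wildtype replicate 2. Its paralogue Rab27a, the Rab of melanosomes and lytic granules, had 43.6, 41.8 and 48.3 against 28.4, 202 and 34.2, where all but 1 wildtype culture lay below the Nhe6-knockout cultures. Its log2 fold change turned from -0.98 to 0.50 without wildtype replicate 2.

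Rab26 (chr17:24527241-24534210), a Rab of secretory granules and synaptic vesicles, had 14.9, 13.9 and 18.9 normalized counts against 5.87, 10.3 and 4.28. The Nhe6-knockout cultures were all higher, with a log2 fold change of 1.21 (SE 0.48, 95% interval 0.05 to 2.37, edgeR adjusted p = 0.408). Rab26 overlaps Traf7 on the same strand. Rab3b had 27.6, 24.2 and 61.5 against 17.6, 20.6 and 17.1, also without overlap, at a log2 fold change of 1.03 (SE 0.48). Rab3a and Rab3d, the abundant members of this role, had -0.13 and -0.25 with SEs of 0.40 and 0.35.

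Among Rabs of lysosome-related organelles, which serve melanosome biogenesis, Rab38 (chr7:88430273-88491572) had 207, 202 and 276 normalized counts against 147, 92.9 and 215. The groups overlapped through wildtype replicate 3, and the log2 fold change was 0.59 (SE 0.34, edgeR adjusted p = 0.567), with 0.33 without wildtype replicate 2 and 0.92 without wildtype replicate 3. Rab32, which shares this function, had 0.12 (SE 0.17). The melanocyte enzyme genes Tyr, Tyrp1 and Dct reached 24.6, 290 and 178 normalized counts in wildtype replicate 3 and were at most 5.16 in the other 5 cultures, and Mitf and Sox10 of the same list were highest elsewhere, at 728 in wildtype replicate 1 and 40.9 in Nhe6-knockout replicate 2. Among the wildtype cultures Rab38 was highest in replicate 3, and over all cultures in Nhe6-knockout replicate 3. The part of melanocyte RNA in its values was not tested. Rab29 (chr1:131867224-131872887), a Rab that recruits LRRK2, had 406, 414 and 294 against 579, 542 and 378, at a log2 fold change of -0.43 (SE 0.23, edgeR adjusted p = 0.537). It starts 151.8 kb beyond the end of Rab7b. Rab40b (chr11:121356125-121388251), which serves as a substrate adaptor of an ubiquitin ligase, had 219.9, 208 and 171 against 95.8, 149.6 and 148. All Nhe6-knockout cultures were higher, at a log2 fold change of 0.61 (SE 0.26, 95% interval -0.02 to 1.24, edgeR adjusted p = 0.436).

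Because paralogues of a subfamily share much of their function, the share of each in its subfamily was taken from the levels per kilobase in every culture. Rab6b made up 2.94% to 3.87% of Rab6 transcripts in Nhe6-knockout and 6.58% to 9.35% in wildtype cultures, and Rab6a the rest. Rab27b made up 13.8% to 24.4% of Rab27 in Nhe6-knockout and 33.0% to 43.9% in wildtype cultures. This held although the level of both Rab27 genes in wildtype replicate 2 was far above that in the other cultures: Rab27b took 33.0% there, the lowest of the wildtype cultures. Rab4a made up 32.6% to 38.6% of Rab4 against 40.0% to 46.1%. In these 3 subfamilies the cultures of the 2 genotypes did not overlap. For normalized counts of single genes, 9.57% of all genes were lower and 10.3% were higher without overlap. No such share was taken for subfamilies of other genes. The genotypes overlapped in all the other subfamilies examined. These were the subfamilies of Rab1, Rab2, Rab3, Rab5, Rab7, Rab8, Rab9, Rab11, Rab22, Rab32, Rab33, Rab39 and Rab40. Rab11a made up 76.5% ± 1.05 of Rab11 in Nhe6-knockout cultures against 76.6% ± 0.915 in wildtype cultures (SD, n = 3 each). Rab5c made up 66.9% ± 3.75 of Rab5 against 61.6% ± 5.99 (SD, n = 3 each). The shares are descriptions and were not tested.

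**Figure D4:**
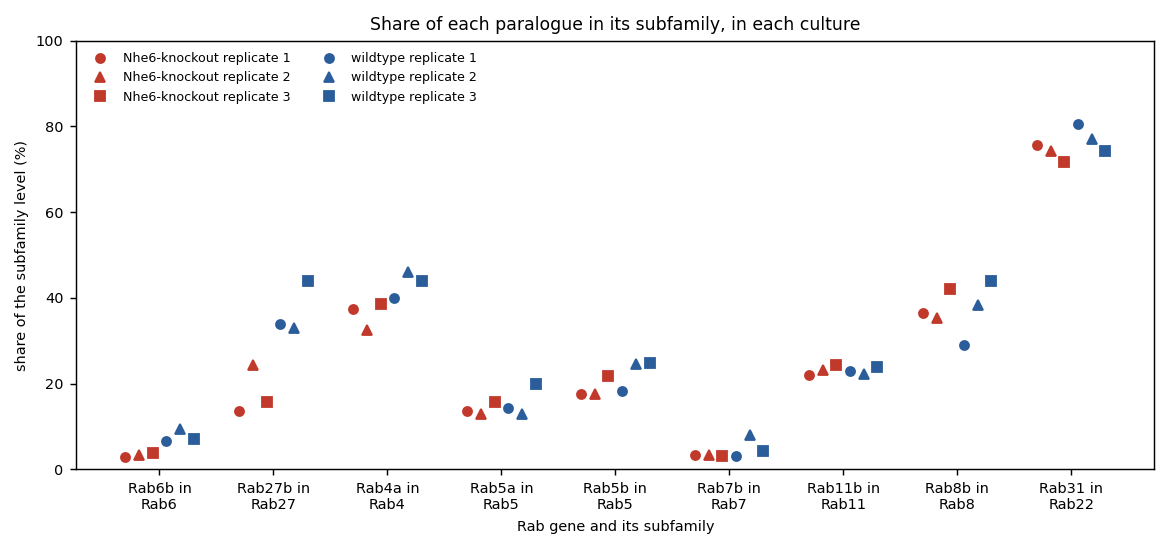
Share of 9 Rab genes in the summed level per kilobase of their subfamily, in percent, with 1 point per culture (red, Nhe6-knockout; blue, wildtype; marker shape, replicate number). Shares of Rab6b, Rab27b and Rab4a are lower in every Nhe6-knockout culture than in any wildtype culture, and the other 6 overlap.

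Wildtype replicate 2 set the size of several differences. Leaving it out turned the sign of several members, among them Rab22a, Rab27a, Rab39b and Rab40c. Without it Rab7b went from -1.06 to -0.39, Rab27b from -2.26 to -1.08, Rab31 from -0.39 to -0.09 and Rab5b from -0.36 to -0.22. Rab38 went from 0.59 to 0.33, Rab20 from 0.60 to 1.36 and Rab3d from -0.25 to -0.54. Rab6b and Rab30 moved less, from -1.36 to -1.07 and from -0.86 to -0.78. The endothelial, fibroblast and mural marker lists did not move one way in that culture. It was the highest of the 6 cultures for 6 and the lowest for 3 of the 9 tested endothelial markers (Cdh5 at 5200 and Emcn at 409.7 normalized counts), highest for 3 and lowest for 5 of 8 fibroblast markers (Col1a1 at 27190 and Lum at 1156), highest for 3 and lowest for 4 of 9 mural markers (Acta2 at 16270 and Pdgfrb at 7793), and lowest for all 8 tested macrophage markers. That culture was also lowest for all 4 tested melanocyte markers. Of 7 tested epithelial markers it was lowest for 5 and highest for 1. Over all genes it was lowest for 26.5% and highest for 26.8%. The part of these markers in the Rab values was not tested. When each culture was left out in turn, 23 members stayed below 0, 7 stayed above 0 and 21 took both signs.

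**Figure D5:**
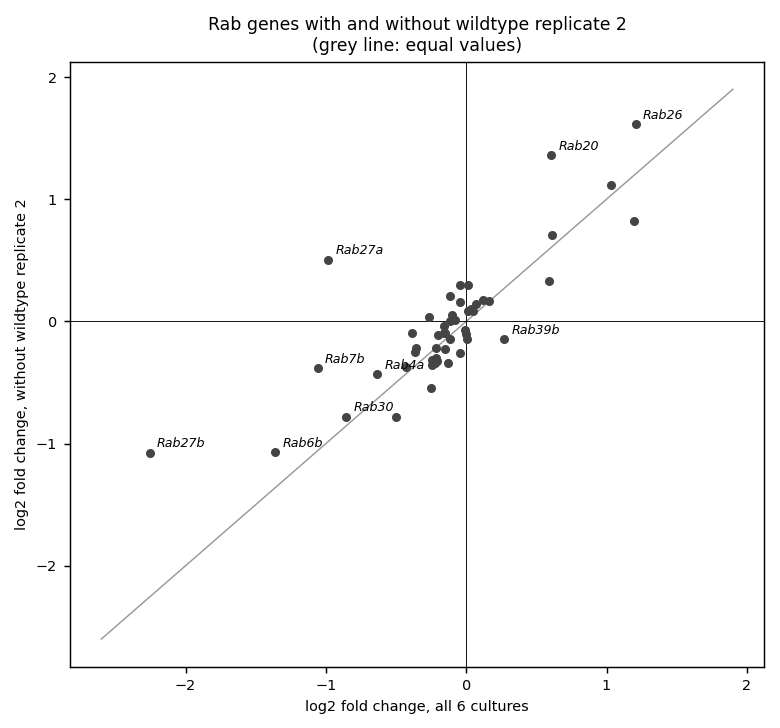
Log2 fold change of the Rab genes tested, Nhe6-knockout over wildtype, with all 6 cultures (horizontal axis) and without wildtype replicate 2 (vertical axis), 1 point per gene. Points off the grey line of equal values moved when the culture was left out: Rab27b from -2.26 to -1.08, Rab27a from -0.98 to 0.50, and Rab6b from -1.36 to -1.07.

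The proteins that act on Rabs were read from 4 lists, of which 123 of 134 genes were tested. None passed the adjusted threshold in edgeR, where 0.0668% of all genes did. At an unadjusted p under 0.05, 7 were lower and 1 was higher, where 5.71% and 6.14% of all genes were, and the median log2 fold change was -0.07 against -0.02 over all genes. For prenylation and membrane extraction, all 8 listed genes were tested, 7 were below 0 and the median was -0.19. Chml, 1 of the 2 escort proteins that present Rabs for prenylation, had 285, 301 and 297 normalized counts in Nhe6-knockout and 351, 1009 and 563 in wildtype cultures. It did not overlap between the genotypes, at a log2 fold change of -1.12 (SE 0.38, edgeR adjusted p = 0.321), and was -0.64 without wildtype replicate 2. Gdi2, a GDP dissociation inhibitor, was at -0.01.

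Of the exchange factors, 34 of 35 were tested and split evenly, 17 below and 17 above 0, with none at an unadjusted p under 0.05. Rabgef1, which activates Rab5, had a log2 fold change of -0.23 (SE 0.15), and Mon1a, Mon1b and Ccz1, parts of the complex that activates Rab7, had -0.19, -0.33 and -0.13. Rin2, another Rab5 exchange factor, had 5064, 5160 and 5393 normalized counts against 8490, 2981 and 8334. Without wildtype replicate 2 its log2 fold change was -0.70 (edgeR adjusted p = 0.0379, with a range over all alternatives of 0.0379 to 0.999), against -0.34 with all cultures. Of the GTPase-activating proteins, 37 of 38 were tested, with a median of -0.04. Sgsm2 had 581, 663 and 693 against 1259, 1281 and 806, at -0.79 (SE 0.21, edgeR adjusted p = 0.216). Tbc1d2b had 7733, 7847 and 7610 against 5308, 6291 and 5263, at 0.46 (SE 0.13, edgeR adjusted p = 0.238), the 1 pathway gene higher at an unadjusted p under 0.05. Tbc1d14 was at -0.32 (SE 0.12). Tbc1d2, which inactivates Rab7, had 171, 231 and 273 against 47.9, 867 and 32.1, where wildtype replicate 2 was the highest of all 6 cultures. Without it the log2 fold change turned from -0.49 to 2.48 (edgeR adjusted p = 0.0301, with a range over its alternatives of 0.0301 to 0.999).

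Of 53 effectors, 44 were tested, 30 were below 0 and the median was -0.11. Rufy1, which binds Rab4 and Rab14 on early endosomes, had 532, 479 and 469.5 normalized counts against 711, 833 and 661, at -0.57 (SE 0.15, edgeR adjusted p = 0.206). Appl2, a Rab5 effector of signalling endosomes, had 2423, 2652 and 2705 against 3820, 4465 and 3180, at -0.56 (SE 0.15, edgeR adjusted p = 0.228). Neither overlapped between the genotypes. Osbpl1a, a lipid-binding effector of Rab7, was at -0.28 (SE 0.11). Mlph, which links Rab27a to myosin Va, had 13.8, 13.0 and 4.73 against 43.0, 194 and 24.6, at -3.04 (SE 0.92, edgeR adjusted p = 0.273) and -1.69 without wildtype replicate 2. Mlph and both Rab27 genes were highest in that culture. Eea1 and Rabep1, the tether and adaptor of Rab5, had -0.48 (SE 0.29) and -0.41 (SE 0.21), with wildtype replicate 2 the highest of the 6 cultures for both, and -0.14 and -0.17 without it. DESeq2 called 4 of the 122 genes of the lists to which it gave an adjusted p, while calling 4.69% of all genes: Sgsm2 (adjusted p = 0.039), Tbc1d2b (0.0287), Rufy1 (0.0341) and Mlph (0.022). Over their alternatives the adjusted p reached 0.742, 0.787, 0.747 and 0.751.

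Several members lie where counting is less certain. The table was made from uniquely placed reads, and the annotation holds 4 pseudogenes named after Rab genes, of Rab5a, Rab7, Rab9b and Rab11b, so reads shared with a copy are missing from the values. Another gene of the table overlaps 12 tested members, on the opposite strand for 10 of them, Rab5a, Rab6a and Rab7 included.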

How the data were processed

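RNA of 6 cultures, 3 per genotype, was sequenced with 75 cycles. The authors deposited raw counts of reads per gene symbol. The submitters' processing notes name bcl2fastq 2.20.0.422, STAR 2.7.7a, HTSeq 0.13.5, DESeq2 1.26.0 and mm10. The strand setting of the counting is not given in the sources used here. The 5 summary lines (22.2% of reads) were left out. Genes were filtered with filterByExpr (minimum count 10), normalized with TMM and compared with the two-sided quasi-likelihood test of edgeR 4.0.16 (R 4.3.3; Benjamini-Hochberg over 13479 genes; threshold 0.05), with genotype alone in the design. The SE is the log2 fold change divided by the square root of F. DESeq2 1.42.0 was an alternative. Scripts were tested on simulated data. Exon lengths and positions came from GENCODE M21 (GRCm38).

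Members and lists were chosen with earlier results of these data known. Values per culture are given for Rab5, Rab7, Rab9, Rab4a and Rab11 genes, members with an unadjusted p under 0.05 and the 10 largest fold changes among those averaging 100 normalized counts or more in a genotype. For each regulator list they are given for up to 8 genes with the smallest unadjusted p under 0.05, except Tbc1d14 and Osbpl1a. For Tbc1d14 and Osbpl1a only the fold change and SE are given. Rab3b, Rab20, Rab25, Rab27a, Rin2 and Tbc1d2 were added after their values were seen. Alternatives were DESeq2 size factors, upper-quartile normalization, no filter beyond 1 count, the DESeq2 test, a replicate block, the sum of Nhe6-knockout replicates 1 and 2, and leaving out each culture. The level of the targeted gene is not reported here.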

Additional observations from a re-analysis of the deposited data

How the results depend on the processing

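The number of Rab genes with an adjusted p under 0.05 was 0 in edgeR under every alternative run and 2 in DESeq2. The number with an unadjusted p under 0.05 was 6 and went to 2 with Nhe6-knockout replicates 1 and 2 summed. It ran from 2 to 11 when 1 culture was left out. It was 2 without Nhe6-knockout replicate 1 or 3, 3 without Nhe6-knockout replicate 2 and 11 without wildtype replicate 3. Without wildtype replicate 2 it was 9, in a fit where 19.5% of all genes had such a p. For the other fits with cultures left out or summed, the share over all genes was not taken. Members without overlap numbered 10, 8 with upper-quartile normalization, and 11 to 20 when 1 culture was left out. They numbered 20 without wildtype replicate 2 or 3 and 19 without wildtype replicate 1 or Nhe6-knockout replicate 3. Fewer cultures make separation easier, and the share over all genes was not taken in these alternatives. For regulators and effectors, 0 passed the adjusted threshold in edgeR and 4 passed in DESeq2, which called 4.69% of all genes. When 1 culture was left out 0 to 2 passed, with 2 without wildtype replicate 2, in a fit that called 2.88% of all genes. Rab5c, at 0.01, turned below 0 without the filter (-0.0012), with the 2 cultures summed (-0.0323), and without Nhe6-knockout replicate 1 (-0.04), Nhe6-knockout replicate 2 (-0.03) or wildtype replicate 3 (-0.1308), with 0.0864 as the highest value when 1 culture was left out, and the cause was not tested. The median of the Rab genes was below 0 in all 12 alternatives, from -0.16 to -0.09. Over all genes, edgeR called 9 genes, 13 with upper-quartile normalization, 21 without the filter, 2 with the block, 1 with the 2 cultures summed, 395 without wildtype replicate 2, and 0 to 4 without 1 of the other cultures. DESeq2 called 627. With the replicate block, 0 Rab genes passed the adjusted threshold and 4 had an unadjusted p under 0.05, against 6 without it. Deviations from the genotype mean correlated at 0.207, -0.189 and 0.111 between same-numbered cultures, and 2 of 6 correlated best with their own number. These values cannot tell whether same-numbered cultures shared a litter or day. Nhe6-knockout replicates 1 and 2 were close to each other, and wildtype replicate 2 stood apart from the other cultures. The median SE was 0.36 for members with a mean under 1000 normalized counts and 0.16 for the others.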
